A study of Mus musculus with 6 samples.

Results

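Across all sequenced libraries, 8 transcription factor genes of the medial ganglionic eminence were followed: Nkx2-1, Lhx6, Lhx8, Nkx6-2, Isl1, Gbx1, Gbx2 and Olig2. They were chosen by name, as Nkx2-1 and its partners and downstream factors, and all 8 of 8 were among the 38561 genes of the count table and among the 16495 genes tested. RNA came from tdTomato-positive cells sorted from the telencephalon of C57BL/6 mouse embryos at E11.5, in mid-gestation. The 4 control libraries carried Nkx2.1-Cre and the Cre-dependent tdTomato reporter ROSAloxSTOPloxTdTomato. The 2 heterozygous libraries carried the same Cre and reporter together with 1 floxed copy of Magoh (Magoh lox/+). The question put to the data is how loss of 1 Magoh allele changes cells of this region, Magoh being part of the exon junction complex, which sits on spliced mRNA. Both groups carry the Cre, so a control without Cre was not part of the comparison, and Nkx2-1 regulatory DNA also sets which cells were sorted.

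The medial ganglionic eminence is a swelling of the ventral embryonic forebrain that produces cortical and striatal interneurons, oligodendrocyte precursors and cholinergic projection neurons. Sonic hedgehog signalling switches on Nkx2-1 in its dividing cells, and Nkx2-1 in turn represses programs of neighbouring regions and activates the LIM homeobox genes Lhx6 and Lhx8. Lhx6 then directs the migration and maturation of somatostatin and parvalbumin interneurons, while Lhx8 together with Isl1 directs the cholinergic fate. Nkx2-1 is also expressed in the hypothalamus, the lung and the thyroid.

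Upstream sequence is shown for the 3 genes at the head of this cascade, since Lhx6 and Lhx8 are the textbook targets of Nkx2-1. The windows are from RefSeq on GRCm38.p6, written 5′ to 3′ on the strand of the gene, all 3 on the minus strand. They end at the base before a RefSeq transcript start, and bases that fall in a GENCODE exon were left out. They lie at chr12:56536909-56537158 for Nkx2-1, at chr2:36104061-36104310 for the third of 3 Lhx6 starts, which is within intron 1 of the longer Lhx6 transcripts, and at chr3:154330660-154330810 for Lhx8, where 99 exon bases were left out. Capitals mark the only match to TNAAGTG, the core recognised by NK2 homeodomain proteins, in the 9 member windows searched.
Nkx2-1: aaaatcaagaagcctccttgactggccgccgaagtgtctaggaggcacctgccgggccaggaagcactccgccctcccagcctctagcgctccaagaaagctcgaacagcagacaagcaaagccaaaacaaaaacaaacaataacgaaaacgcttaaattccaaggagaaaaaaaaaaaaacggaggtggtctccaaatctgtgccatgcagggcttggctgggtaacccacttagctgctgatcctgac
Lhx6: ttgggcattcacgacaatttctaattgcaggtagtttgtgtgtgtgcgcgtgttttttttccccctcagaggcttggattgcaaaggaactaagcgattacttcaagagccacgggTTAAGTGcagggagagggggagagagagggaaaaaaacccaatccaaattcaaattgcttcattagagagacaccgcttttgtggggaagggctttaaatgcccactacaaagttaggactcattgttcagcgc
Lhx8: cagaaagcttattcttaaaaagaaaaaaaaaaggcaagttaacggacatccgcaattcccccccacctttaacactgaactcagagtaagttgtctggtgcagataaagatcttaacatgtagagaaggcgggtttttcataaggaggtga
Over 7 of the 8 genes, 9 windows of 250 bases were searched on both strands, and Gbx1 is named only. TNAAGTG was found in 1 of 9 windows, as TTAAGTG at position -134 from the third Lhx6 start, against 10.1% of 32851 RefSeq windows of the same length. The homeodomain core TAATTA was found in 0 of 9 windows and in 4.84% of all windows. The E-box CANNTG, the core bound by basic helix-loop-helix proteins such as Olig2, was found in 5 of 9 windows and in 66.2% of all windows. A match is a description of the letters and not a binding site, and no match says only that these letters are not in this window.

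Libraries held 37.4 to 49.2 M counts, and 17078 to 19071 genes had at least 1 read. Levels are CPM, read counts scaled to a common library size with TMM factors. No Y-linked reads (0) were found in control 2 and heterozygous 1, against 3453 to 4291 elsewhere. Xist stood at 94.2 and 111.4 CPM in that pair and at 0 to 0.55 CPM elsewhere, so the pair reads as female and the rest as male. The level of long transcripts relative to short ones was also lower in that pair, at -0.75 and -0.32 log2 units against 0.13 to 0.38 in the rest. Each factor is therefore also given as heterozygous 1 against control 2 and as heterozygous 2 against controls 1, 3 and 4. The labels do not tell whether each library is a separate embryo. By these reads, heterozygous 1 and heterozygous 2 did not come from the same embryo. Control 2 did not share an embryo with controls 1, 3 or 4. Among controls 1, 3 and 4 the spread behind the p-values may be technical. Magoh itself stood at 68.1, 117.9, 63.6 and 74.3 CPM in controls 1 to 4 and at 57.1 and 48.6 CPM in the heterozygous libraries. Both heterozygous values were below every control, with a log2 fold change of -0.62 (SE 0.27, edgeR adjusted p = 0.850), and of -0.37 without control 2, the highest control.

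None of the 8 factors differed between genotypes beyond the spread between libraries. With edgeR 0 of 8 passed an adjusted p of 0.05, where 0% of all tested genes passed, and 0 of 8 had an unadjusted p under 0.05, where 5.72% of all tested genes did. DESeq2 called 0 of 8 (0.449% of all genes) and limma-voom called 0 of 8 (0% of all genes). In counts simulated for 4 control and 2 heterozygous libraries, edgeR recovered 20% of 2-fold changes, limma-voom 19% and DESeq2 43%. For 4-fold changes these were 73%, 72% and 87%. A result of 0 of 8 thus does not show that no factor changed 2-fold. DESeq2 made 36 false calls in the simulation, against 5 with edgeR. For 0 of 8 did both heterozygous libraries lie above every control (6.17% of all genes) or below every control (8.14%). The log2 fold change was above 0 for 6 of 8, against 46.1% of all genes, with a median of 0.20 for the 8 and -0.03 for all genes. In sorted bulk cells, fewer cells of a type and less RNA per cell cannot be told apart.

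**Figure D1:**
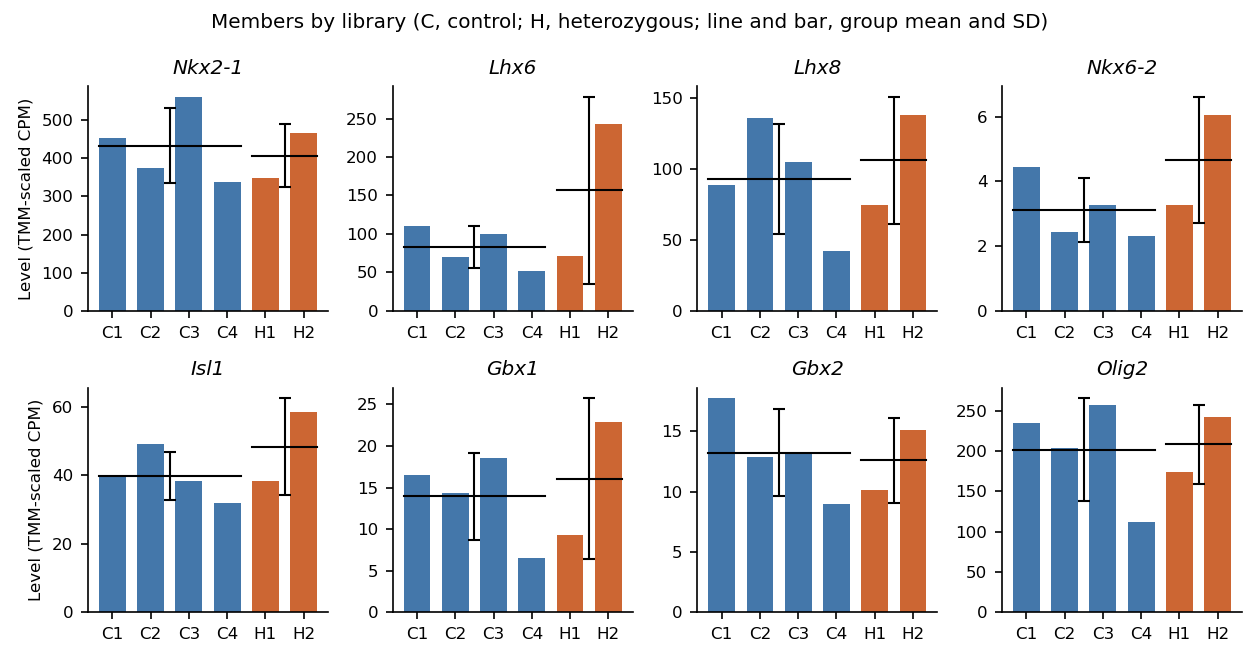
Level of each of the 8 factors in every library, in TMM-scaled CPM, with 4 control and 2 heterozygous libraries and each group mean marked. Heterozygous 2 lies above every control for 5 genes, and heterozygous 1 lies within the control range for all 8.

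Nkx2-1 (ENSMUSG00000001496; chromosome 12, 56531958 to 56536908, minus strand, GRCm38) is the homeobox factor that specifies the eminence. It stood at 454, 376, 561 and 339 CPM in controls 1 to 4 and at 349 and 466 CPM in heterozygous libraries 1 and 2. Both heterozygous values fell inside the range of the controls. The means were 432.6 ± 98.5 CPM (SD, n = 4) in controls and 407.3 ± 82.8 CPM (SD, n = 2) in the heterozygous libraries, with a log2 fold change of -0.09 (SE 0.24, edgeR adjusted p = 0.9995). The difference was -0.11 log2 units for heterozygous 1 against control 2 and 0.08 for heterozygous 2 against controls 1, 3 and 4.

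Lhx6 (ENSMUSG00000026890; chromosome 2, 36081953 to 36105408, minus strand), the LIM homeobox factor of interneurons, differed most between the heterozygous libraries. It stood at 110.5, 70.1, 99.45 and 51.3 CPM in controls 1 to 4 and at 70.8 and 242.7 CPM in heterozygous libraries 1 and 2. Heterozygous 1 sat at the level of control 2, and heterozygous 2 was far above every other library. Heterozygous 2 was 3.43-fold above heterozygous 1 and 2.93-fold above the control mean. The means were 82.8 ± 27.1 CPM (SD, n = 4) in controls and 156.8 ± 121.6 CPM (SD, n = 2) in the heterozygous libraries, with a log2 fold change of 0.92 (SE 0.47, edgeR adjusted p = 0.885). Without heterozygous 2 the log2 fold change was -0.23, and without heterozygous 1 it was 1.56 (edgeR adjusted p = 0.586). The difference was 0.02 log2 units for heterozygous 1 against control 2 and 1.56 for heterozygous 2 against controls 1, 3 and 4.

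Lhx8 (ENSMUSG00000096225; chromosome 3, 154306294 to 154330659, minus strand) is the LIM homeobox factor of cholinergic neurons. It stood at 88.7, 135.8, 105.0 and 42.3 CPM in controls 1 to 4 and at 74.4 and 137.8 CPM in heterozygous libraries 1 and 2. Control 2 and heterozygous 2 were nearly equal at the top, and control 4 was lowest. The log2 fold change was 0.19 (SE 0.43, edgeR adjusted p = 0.9995), from means of 92.9 ± 39.0 CPM (SD, n = 4) and 106.1 ± 44.9 CPM (SD, n = 2). Without control 4 it was -0.047. The 2 contrasts had opposite signs, at -0.87 log2 units for heterozygous 1 against control 2 and 0.91 for heterozygous 2 against controls 1, 3 and 4.

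Isl1 (ENSMUSG00000042258; chromosome 13, 116298281 to 116309689, minus strand), a LIM homeobox factor that acts with Lhx8 in cholinergic neurons, varied least among the controls. It stood at 39.5, 49.1, 38.4 and 31.9 CPM in controls 1 to 4 and at 38.3 and 58.3 CPM in heterozygous libraries 1 and 2. Heterozygous 1 lay among the controls and heterozygous 2 above them all. The log2 fold change was 0.28 (SE 0.24, edgeR adjusted p = 0.981), from means of 39.7 ± 7.06 CPM (SD, n = 4) and 48.3 ± 14.1 CPM (SD, n = 2). The difference was -0.36 log2 units for heterozygous 1 against control 2 and 0.68 for heterozygous 2 against controls 1, 3 and 4.

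Gbx1 (ENSMUSG00000067724; chromosome 5, 24502757 to 24527202, minus strand) and Gbx2 (ENSMUSG00000034486; chromosome 1, 89927956 to 89931179, minus strand) are gastrulation brain homeobox factors of differentiating cells of the eminence. Gbx1 stood at 16.5, 14.3, 18.5 and 6.58 CPM in controls 1 to 4 and at 9.26 and 22.9 CPM in heterozygous libraries 1 and 2. Its heterozygous libraries lay near opposite ends of the 6 values, with a log2 fold change of 0.21 (SE 0.46, edgeR adjusted p = 0.9995). Means were 13.97 ± 5.22 CPM (SD, n = 4) in controls and 16.1 ± 9.65 CPM (SD, n = 2) in the heterozygous libraries, and the 2 contrasts gave -0.63 and 0.86 log2 units. Gbx2, which is needed by a class of cholinergic interneurons, stood at 17.7, 12.9, 13.3 and 8.995 CPM in controls 1 to 4 and at 10.1 and 15.1 CPM in heterozygous libraries 1 and 2. Both heterozygous values fell within the control range. The log2 fold change of Gbx2 was -0.07 (SE 0.30, edgeR adjusted p = 0.9995), from means of 13.2 ± 3.58 CPM (SD, n = 4) and 12.6 ± 3.52 CPM (SD, n = 2), and the 2 contrasts gave -0.35 and 0.23. Gbx2 shares 946 exon bases with D130058E05Rik on the other strand, which had 25 to 60 reads against 402 to 743 for Gbx2. The sources used here do not give the strandedness, so reads there cannot be told apart.

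Olig2 (ENSMUSG00000039830; chromosome 16, 91225457 to 91228677, plus strand) and Nkx6-2 (ENSMUSG00000041309; chromosome 7, 139579376 to 139582797, minus strand) are factors of dividing cells. Olig2, a basic helix-loop-helix factor of ventral progenitors and later of oligodendrocyte precursors, stood at 234, 204, 257 and 112 CPM in controls 1 to 4 and at 174 and 243 CPM in heterozygous libraries 1 and 2. Only control 4 stood apart, at the bottom. The log2 fold change of Olig2 was 0.05 (SE 0.32, edgeR adjusted p = 0.9995), from means of 201.8 ± 63.7 CPM (SD, n = 4) and 208.3 ± 48.8 CPM (SD, n = 2), and the 2 contrasts gave -0.23 and 0.36 log2 units. Nkx6-2, a homeobox factor of the dorsal eminence next to the sulcus, stood at 4.45, 2.45, 3.27 and 2.30 CPM in controls 1 to 4 and at 3.28 and 6.04 CPM in heterozygous libraries 1 and 2. Heterozygous 2 was highest, while heterozygous 1 was at the level of control 3. Nkx6-2 had a log2 fold change of 0.58 (SE 0.39, edgeR adjusted p = 0.947), from means of 3.12 ± 0.984 CPM (SD, n = 4) and 4.66 ± 1.955 CPM (SD, n = 2). It was above 0 in both contrasts, at 0.42 and 0.91 log2 units, and was 0.066 without heterozygous 2. It is the member with the fewest reads, 88 to 297 per library, and shares 246 exon bases with Inpp5a on the other strand (1244 to 1826 reads), so its level is uncertain.

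**Figure D2:**
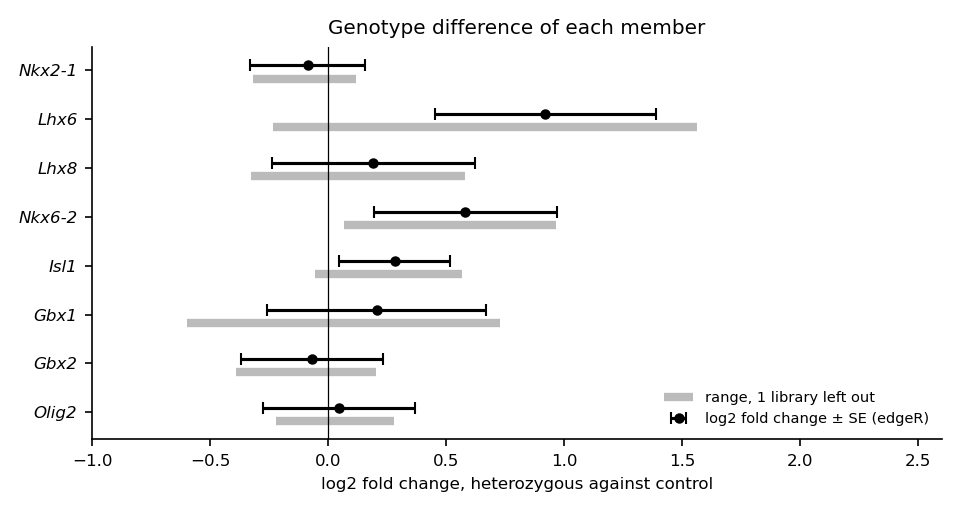
Log2 fold change of each factor between genotypes with its standard error from edgeR. In the contrasts given in the text, heterozygous 2 against controls 1, 3 and 4 is above 0 for all 8 genes. Heterozygous 1 against control 2 is below 0 for 6 of 8. Shares over all genes are not given for these contrasts.

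The 8 factors were low together in 1 control library and high together in 1 heterozygous library. Control 4 was the lowest of all 6 libraries for 8 of 8 genes, where it was lowest for 15.2% of all tested genes, and so the lowest control for 8 of 8, against 21.4% of all genes. Heterozygous 2 was the highest library for 5 of 8 (Lhx6, Lhx8, Nkx6-2, Isl1 and Gbx1), where it was highest for 17.4% of all genes and above every control for 19.9%. Heterozygous 2 was above heterozygous 1 for 8 of 8, against 48.8% of all genes. Among the controls the median SD of the log2 level was 0.47 for the 8 factors and 0.29 for all genes. Relative to the mean of controls 1 to 3, control 4 stood at 0.386 for Lhx8, 0.400 for Gbx1 and 0.484 for Olig2, and at 0.730 for Nkx2-1 and 0.754 for Isl1. With control 4 left out, 3 of 8 log2 fold changes were above 0, and with heterozygous 2 left out 1 of 8 was. Without heterozygous 1 all 8 were above 0, as they were without both libraries that lack Y-linked reads. The median log2 fold change of all tested genes was -0.03 without control 4 and -0.05 without heterozygous 2. It was -0.06 without heterozygous 1 and -0.04 without both libraries that lack Y-linked reads.

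**Figure D3:**
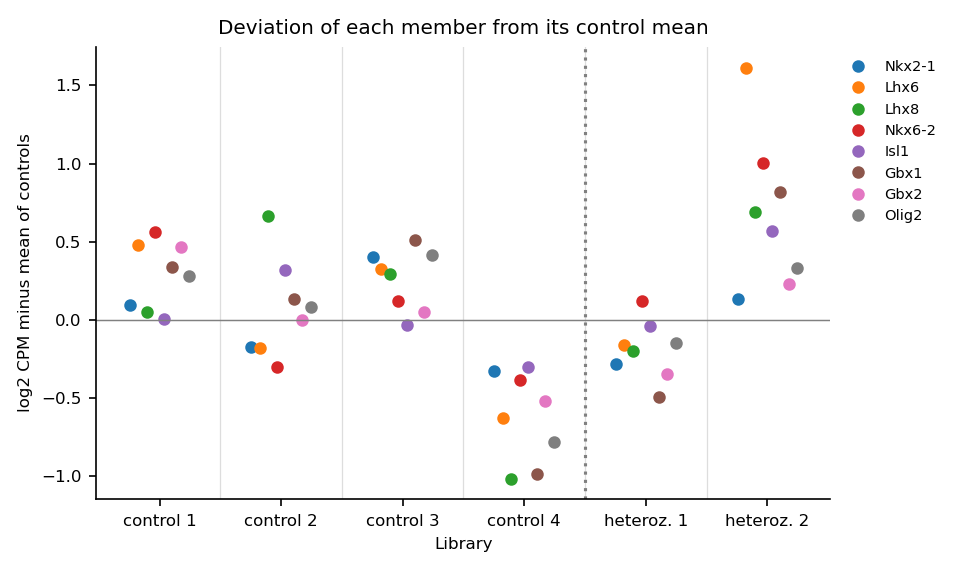
Deviation of each factor in each library from its control mean, in log2 CPM, with 1 point per gene. All 8 points of control 4 lie below 0 and all 8 of heterozygous 2 lie above 0.

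Setting each factor against Nkx2-1 in the same library removes the scaling between libraries. Lhx6 had 24.3, 18.6, 17.7 and 15.2 reads per 100 Nkx2-1 reads in controls 1 to 4 and 20.3 and 52.1 in heterozygous libraries 1 and 2. Heterozygous 2 was again apart from all others, with heterozygous 1 inside the control range. The log2 ratio differed by 0.80 (exact permutation test, two-sided, p = 0.133, n = 4 and 2), where the smallest p that 15 splits allow is 0.0667. It differed by 0.12 without heterozygous 2 and by 1.48 without heterozygous 1. Lhx8 had 19.5, 36.1, 18.7 and 12.5 reads per 100 Nkx2-1 reads in controls and 21.3 and 29.6 in heterozygous libraries, all between the lowest and the highest control. The Lhx8 log2 ratio differed by 0.32, by 0.083 without heterozygous 2, by 0.089 without control 4 and by 0.60 without control 2. Olig2 had 51.5, 54.2, 45.8 and 33.1 in controls and 49.8 and 52.1 in heterozygous libraries, so control 4 was low for Olig2 against Nkx2-1 as well. The Olig2 log2 ratio differed by 0.17, and by 0.016 without control 4 and 0.25 without control 2. The remaining log2 ratios differed by 0.64 for Nkx6-2 (0.40 without heterozygous 2), 0.34 for Isl1 (0.20 without control 3), 0.24 for Gbx1 and 0.02 for Gbx2. Over the 7 ratios tested, unadjusted exact permutation p-values ran from 0.133 to 0.867, and no ratio could have passed a threshold of 0.05 in this design. Lhx6 had 124.6, 51.6, 94.8 and 121 reads per 100 Lhx8 reads in controls and 95.2 and 176 in heterozygous libraries, a range in which control 2 was lowest.

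Per kilobase of exon, the factors kept 1 order of level. Means over the 6 libraries were 149.2 CPM per kb for Nkx2-1, 80.6 for Olig2, 38.4 for Lhx8, 22.4 for Lhx6, 10.8 for Isl1, 5.99 for Gbx2, 4.22 for Gbx1 and 1.90 for Nkx6-2. Within a library each gene stood above the next in this order in 6 of 6 libraries, for all 7 neighbouring pairs. Across libraries only Nkx2-1 and Olig2 had ranges that did not overlap, and for the other 6 pairs the order held within each library although their ranges across libraries overlapped. Nkx2-1 was above 98.6% of tested genes and Olig2 above 97.0%, while Gbx1 was above 52.6% and Nkx6-2 above 38.6%. With the longest transcript in place of the union of exons Isl1 moved to 16.9 CPM per kb.

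The other genes of this program were read from lists of textbook members, of which 0 passed edgeR in any list. Of 13 genes of the Dlx and Gsx program shared by all ganglionic eminences, 13 lay above 0 in log2 fold change, as did 46.1% of all genes. Their median was 0.66 against -0.03 for all genes, and 3 of 13 had an unadjusted p under 0.05, against 5.72% of all genes. Control 4 was lowest for 12 of them and heterozygous 2 highest for 11, as for the 8 factors. Dlx1, a homeobox factor of GABAergic precursors, stood at 151, 142, 143 and 75.5 CPM in controls and at 152 and 289 CPM in heterozygous libraries, a log2 fold change of 0.79 (SE 0.33, edgeR adjusted p = 0.850). It was 0.25 without heterozygous 2 and 1.19 without heterozygous 1. Gsx1, a homeobox factor of eminence progenitors, had a log2 fold change of 0.72 (SE 0.29, edgeR adjusted p = 0.850), and of 0.42 without heterozygous 2.

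Upstream of Nkx2-1, 10 of 12 genes of ventral patterning lay below 0 in log2 fold change (median -0.37), as did 8897 of all 16495 tested genes. Fgf8, a secreted signal of the forebrain midline, stood at 7.18, 7.12, 8.66 and 16.6 CPM in controls and at 1.51 and 1.24 CPM in heterozygous libraries, with all controls above both. Its log2 fold change was -2.85 (SE 0.46, edgeR adjusted p = 0.793). DESeq2 called it (DESeq2 adjusted p = 1.47e-06). In simulated counts DESeq2 made 36 false calls at an adjusted p under 0.05, against 5 with edgeR. Over 17 alternatives the log2 fold change of Fgf8 ran from -3.12 to -2.47. Its receptor Fgfr1 had a log2 fold change of -0.73 (SE 0.26, edgeR adjusted p = 0.841) and the homeobox factor Otx2 one of -0.66 (SE 0.23, edgeR adjusted p = 0.832).

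Downstream of Nkx2-1 and Lhx6, 12 of 16 interneuron genes lay above 0 in log2 fold change (median 0.30), against 46.1% of all genes. Sst, the somatostatin gene of the interneurons Lhx6 specifies, stood at 3.67, 3.48, 1.57 and 1.61 CPM in controls and at 5.26 and 12.02 CPM in heterozygous libraries. Both heterozygous libraries were above every control, with a log2 fold change of 1.75 (SE 0.48, edgeR adjusted p = 0.793). The calcium-binding protein gene Calb1 had a log2 fold change of 0.997 (SE 0.32) and the zinc finger factor St18 one of 0.83 (SE 0.27), each with an edgeR adjusted p of 0.793. Without heterozygous 2 these were 1.02 for Sst, 0.63 for Calb1 and 0.52 for St18. Maf, a leucine zipper factor of migrating interneurons named after its values were seen, had the largest difference of the 16, in the other direction. It stood at 24.4, 13.2, 37.5 and 49.6 CPM in controls and at 3.37 and 12.6 CPM in heterozygous libraries, both below every control. Its log2 fold change was -1.964 (SE 0.66, edgeR adjusted p = 0.816), -3.22 without heterozygous 2 and -1.30 without heterozygous 1. Of 5 tested genes of cholinergic and striatal neurons 2 were above 0, against 46.1% of all genes, with a median of -0.15. There the zinc finger factor Zic4 had a log2 fold change of -0.57 and the choline transporter Slc5a7 one of -0.29, and Chat, the acetylcholine synthase, had 0 reads in all 6 libraries, which allows up to 0.061 to 0.0835 CPM from 3 counts each.

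LIM homeobox proteins act with cofactors, and of 9 such genes 7 lay above 0 in log2 fold change (median 0.084), against 46.1% of all genes. Among them Ldb2, a LIM domain binding partner, had a log2 fold change of 0.20, Ssbp2 one of 0.15 and Lmo2 one of -0.30. Of 10 tested paralogs of the 8 factors 8 were above 0, against 46.1% of all genes, with a median of 0.18. The ventral neural tube factor Nkx2-2 had a log2 fold change of 0.80, Olig3 one of 0.82 (0.12 without heterozygous 1) and Lhx1 one of 0.72. Nkx6-3 had 0 reads in all 6 libraries.

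**Figure D4:**
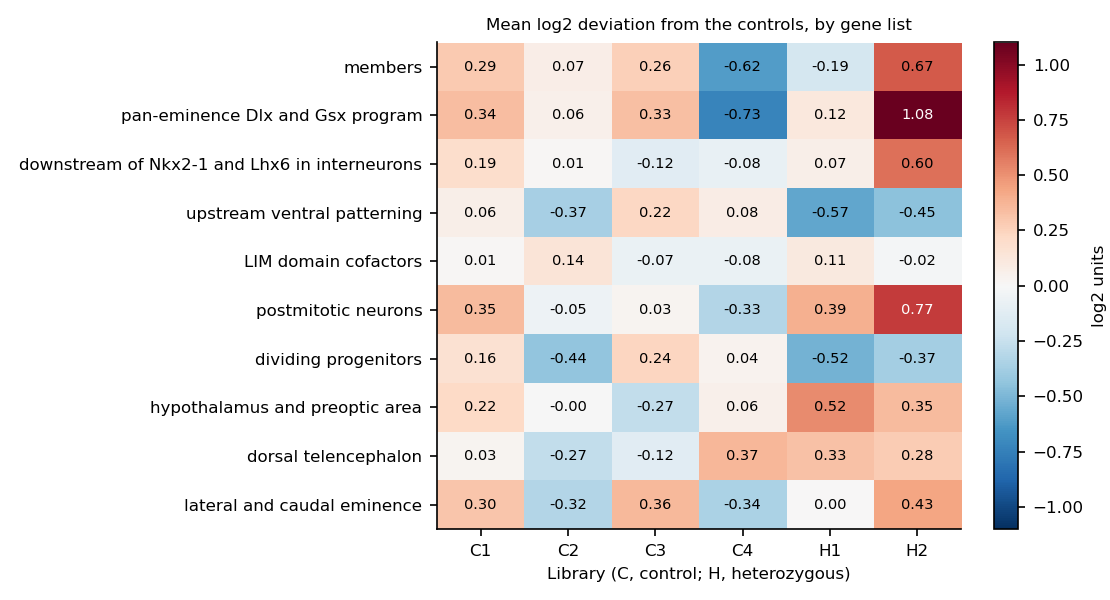
Mean log2 CPM of the genes of each list in each library, minus its mean over the 4 controls, for the 8 factors and lists of related genes. The 8 factors run from -0.62 in control 4 to 0.67 in heterozygous 2, and the Dlx and Gsx list runs from -0.73 to 1.08 in the same libraries.

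Markers of other cells that the gate could hold were measured beside these results, and their part in them was not tested. Of 7 postmitotic neuron markers 7 lay above 0 in log2 fold change, against 46.1% of all genes, with a median of 0.55. Both heterozygous libraries were above every control for 5 of 7, against 6.17% of all genes. The summed level of these markers was 1945 to 2878 CPM in controls and 3355 and 4022 CPM in heterozygous libraries, with none at 0 in all libraries. The 9 markers of dividing progenitors summed to 3852 to 6586 CPM in controls and to 3896 and 4657 CPM in heterozygous libraries. In log2 fold change 7 of 9 were below 0, as were 8897 of all 16495 tested genes. The lowest sums of these progenitor markers were in control 2 and heterozygous 1, the pair where long transcripts were relatively low. The part of transcript length in this was not tested. All 10 hypothalamic and preoptic markers were detected in cells labelled telencephalon, at a summed 464 to 777 CPM in controls and 614 and 536 CPM in heterozygous libraries. Of these 10 markers 7 lay above 0 in log2 fold change, against 46.1% of all genes, with a median of 0.72. Both heterozygous libraries were above every control for 6 of 10, against 6.17% of all genes. At an unadjusted edgeR p under 0.05 there were 6 higher and 1 lower, against 5.72% of all genes in either direction. Of the 10 markers 0 passed edgeR, and DESeq2 called 1, Sim1. Sim1, a factor of hypothalamic neurons, stood at 26.5, 19.7, 17.7 and 18.2 CPM in controls and at 43.9 and 34.5 CPM in heterozygous libraries, a log2 fold change of 0.93 (SE 0.22, edgeR adjusted p = 0.793). The mean deviation of the 10 markers was 0.52 and 0.35 log2 units in the heterozygous libraries, against -0.27 to 0.22 in controls and 0.056 in control 4. The summed level was highest in control 4, where the progenitor factor Dbx1 alone stood at 416 CPM. Rax, a homeobox factor of the hypothalamus singled out after its values were seen, stood at 79.7, 66.0, 61.1 and 133 CPM in controls and at 46.7 and 47.6 CPM in heterozygous libraries, highest in control 4, and was the 1 lower marker. Its log2 fold change was -0.85 (SE 0.32), and -0.55 without control 4. Microglia markers summed to 59.4 CPM in control 4 against 1.70 to 2.09 CPM in the other controls, and to 6.62 and 0 CPM in heterozygous libraries. Endothelial and blood markers summed to 25.3 to 86.8 CPM in controls and to 200.4 and 7.24 CPM in heterozygous libraries. The 7 markers of thyroid and lung, which also use Nkx2-1, summed to 0.529 to 1.72 CPM over all 6 libraries, with Sftpc, Sftpb and Scgb1a1 at 0 in every one.

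The genes whose profile over the 6 libraries was nearest to a factor were found among 10116 candidates by the root mean square difference of centred log2 CPM, as a description. Nearest to Lhx6 were Gad2, a GABA-synthesising enzyme (0.118 log2 units), the synaptic adhesion gene Nrxn3 (0.131) and the homeobox factor Dlx5 (0.150), against a median of 0.746 over candidates. Without heterozygous 2 they ranked 2, 4 and 8. Nearest to Lhx8 were the neuronal enolase Eno2 (0.092), the LIM-only factor Lmo1 (0.181) and Tbc1d8b (0.191), and without control 4 these ranked 2, 13 and 1. Nearest to Nkx6-2 were Rap1gap (0.069), Celf4 (0.073) and Mxd1 (0.080). Nearest to Gbx1 were Myt1l (0.208), Rgs16 (0.214) and the GABA-synthesising enzyme Gad1 (0.225), but without control 4 these ranked 85, 30 and 131. Of the 28 pairs among the 8 factors the nearest was Gbx2 with Olig2 (0.215) and the farthest Nkx2-1 with Lhx6 (0.580). All points share the same 6 libraries, so a library that stands apart enters every likeness.

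**Figure D5:**
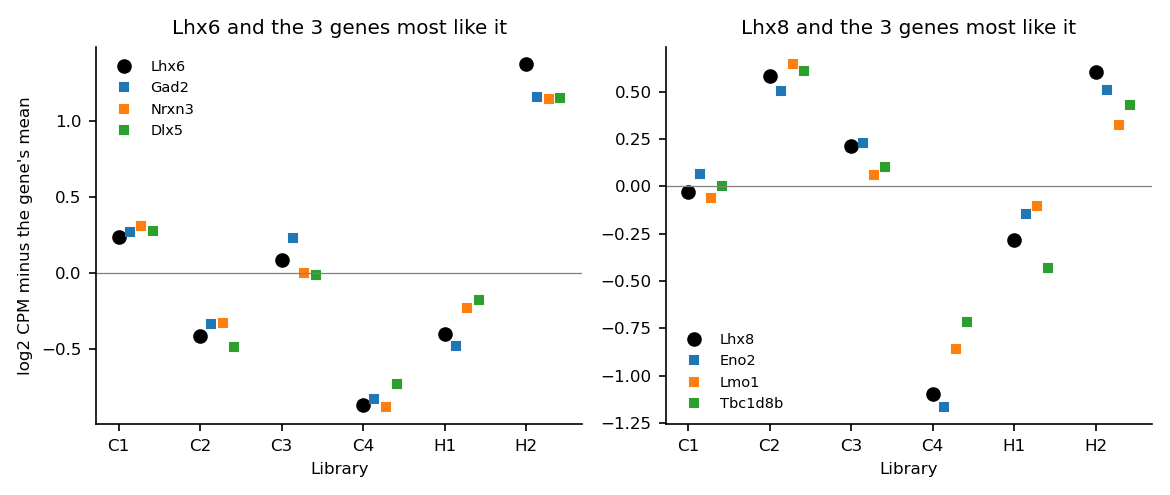
Centred log2 CPM of Lhx6 and Lhx8 and of the 3 genes nearest to each, in controls 1 to 4 (C1 to C4) and heterozygous libraries 1 and 2 (H1, H2), with 1 point per gene and library. Lhx6 and its nearest genes peak in H2 and are lowest in C4, and Lhx8 is high in both C2 and H2.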

How the data were processed

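RNA was sequenced from 4 control and 2 heterozygous samples. Per the labels' protocols, sorted cells were lysed, RNA was isolated with RNeasy columns, and a NuGEN mRNA kit was used without its AnyDeplete step. HTSeq, STAR, Trim Galore and mm10 are named, without versions, per the submitters' processing notes. Annotation, strandedness and counting options are not known from the sources used here. The authors deposited raw read counts for 38561 genes and a second table of normalized signal (counts divided by a size factor), used only as an alternative.

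Counts were filtered with filterByExpr, scaled by TMM and tested with edgeR 4.0.16 under R 4.3.3 (robust glmQLFit, glmQLFTest, two-sided). P-values were Benjamini-Hochberg adjusted over 16495 genes, with a threshold of 0.05. A standard error is the log2 fold change over the square root of F. Gene positions and exon lengths came from GENCODE M21 (36639 gene IDs matched). Alternatives were DESeq2 1.42.0, limma 3.58.1 (voom, and trend on the normalized signal), other scalings and filters, a block, a covariate, removal of length and GC trends (known for 98.6% of tested genes), and leaving out libraries. Ratios used a prior count of 0.5. A count of 0 allows up to 3 counts, which covers counting error only. From each list the 3 genes with the smallest p are named (Rax, Sim1, Dbx1 and Maf were added after their values were seen), and some that the rule names are not reported here. The members, lists and alternatives were chosen with earlier results of these data known. Scripts were tested on simulated data.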

Additional observations from a re-analysis of the deposited data

Results flagged for a closer look

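For Lhx8, Gbx1 and Isl1 heterozygous 2 lay above each of controls 1, 3 and 4, the libraries that share its Y-linked reads, while heterozygous 1 lay below control 2. The difference between the contrasts was not tested, since neither has replicates in both groups. Heterozygous 2 minus the mean of controls 1, 3 and 4, less heterozygous 1 minus control 2, came to 1.78 log2 units for Lhx8, 1.49 for Gbx1 and 1.03 for Isl1.

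In 3 of 53 sets of control values screened, 1 control stood far from the other 3, as the gap to its nearest neighbour over the whole range, beyond the critical value of Dixon's test at 95%. Control 4 stood apart for Dlx1 (0.903) and for the microglia marker score (0.895), and control 2 for Fgfr1 (0.840). Chance gives about 1 such set in every 20.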

How the results depend on the processing

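Over all tested genes DESeq2 called 74 and the fit with the sample code number as a replicate block called 11, against 0 with edgeR, and 0 of the 8 factors were called under any of 17 alternatives. The labels do not say what the code number marks. Only the number 70 is shared by both genotypes (control 1 and heterozygous 2), so whether numbers pair samples could not be checked. With the block the log2 fold change was 0.036 for Nkx2-1, -0.022 for Magohb, 0.18 for Zic4, -0.0063 for Ldb2 and -0.14 for Olig3, each opposite in sign to the value without it. With Y-linked expression as a covariate Magohb stood at -0.11. Without both libraries that lack Y-linked reads Nkx2-1 stood at 0.056 and Gbx2 at 0.19. For the covariate and the left-out libraries the cause was not tested.

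Leaving out 1 library at a time gave log2 fold changes from -0.32 to 0.12 for Nkx2-1, -0.23 to 1.56 for Lhx6, -0.33 to 0.58 for Lhx8, 0.066 to 0.97 for Nkx6-2, -0.057 to 0.57 for Isl1, -0.60 to 0.73 for Gbx1, -0.39 to 0.20 for Gbx2 and -0.22 to 0.28 for Olig2. Beyond the factors it gave -0.20 to 0.31 for Magohb, -0.76 to 0.070 for Slc5a7 and -1.25 to 0.27 for Lmo2, and for the ratios to Nkx2-1 it gave -0.21 to 0.68 for Gbx1 and -0.10 to 0.14 for Gbx2. Only Nkx6-2 of the 8 factors kept its sign in every alternative, as did 15 of 21 other named genes and 5 of 7 ratios. Removal of length and GC trends shifted the median of all genes by 0.11 log2 units. Where 1 heterozygous library is left, it is assumed to vary as the controls do. Nkx6-2 rests on 88 to 297 reads per library.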
